A study of Mus musculus with 21 samples.

Results

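The minor α-defensin genes described here are Defa3, Defa5, Defa25, Defa27, Defa28 and Defa34, 6 of the 28 protein-coding Defa genes of the mouse and 6 of 55414 gene rows in the table. They were chosen by their level in these libraries, as listed Defa genes of low abundance that still had counts, so that their low level is a description and not a finding. Defa34 was set apart from the other 5 with earlier results of these data known, and its difference from them is therefore given as a description. The libraries were 21 bulk RNA-seq libraries, each from FACS-sorted Paneth cells of the small intestine. Mice drank Milli-Q water or water with zinc sulfate (200 mM as the labels give it) for 7 weeks, in 3 microbiome contexts. Specific pathogen free (SPF) mice gave 3 libraries on Milli-Q and 3 on zinc water. SPF mice that received broad-spectrum antibiotics in the last 3 of these weeks gave 4 libraries on each water. Germ-free mice gave 3 libraries on Milli-Q and 4 on zinc water. No allele or transgene is named in the labels, the study's methods describe C57BL/6J mice, and the sources used here give no age.

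In the crypts of the small intestine, Paneth cells release granules rich in antimicrobial peptides, among which the α-defensins are the most abundant. Each Defa gene has a short first exon for the signal peptide and most of the pro-piece and a second exon for the mature peptide with its conserved cysteines. The precursors are packed in secretory granules and cut by the protease MMP7, and the mature peptides act on the membranes of bacteria in the gut lumen. The genes lie side by side in a cluster of near-identical copies, so that short reads can be hard to assign to a single gene.

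Total counts ranged from 9888174 to 16896714 per library, with a median of 12936001, and the 28 Defa genes held 24.1 to 44.5% of them. Paneth cell markers (Lyz1, Itln1, Ang4, Mmp7, Mptx2 and Pnliprp2) held 12.9 to 22.4% of counts and goblet cell markers 0.934 to 1.56%. Markers of enterocytes held at most 0.123% of counts, and stromal markers at most 0.000381%, with Col3a1 at 0 in every library. SPF zinc replicate 1 stood apart by sex-linked genes, with 6228 Xist counts and 0 Ddx3y counts, against at most 34 Xist and at least 65 Ddx3y counts in the other 20 libraries. Germ-free zinc replicates 1 and 4 had the lowest mean correlation with their own group over log2 levels (0.941 and 0.939). Results that change without any of these are given with the value without it. Replicates differed by more than sampling noise in every pair (chi-square per gene of 7.97 or more). Nothing in the labels says more of the source of each library, so p-values measure the spread between these libraries.

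All 6 genes lie on the forward strand of chromosome 8 in GRCm39, within the Defa cluster. Defa25 (ENSMUSG00000094687) spans chr8:21574458-21575301, Defa3 (ENSMUSG00000074440) chr8:21777413-21778393, Defa5 (ENSMUSG00000074439) chr8:21787455-21788391 and Defa27 (ENSMUSG00000082211) chr8:21805536-21806499. Defa28 (ENSMUSG00000074434) spans chr8:22072965-22073980 and Defa34 (ENSMUSG00000063206) chr8:22155768-22156751. Defa3, Defa5 and Defa27 are thus next to one another, while Defa34 lies next to Defa17. In the current annotation a long non-coding RNA, Gm65300, runs over Defa3 and Defa5 on the same strand. It had no row in the table.

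The coding part of exon 2, which encodes the mature peptide up to the stop codon, shows how alike the genes are. It is given below in the sense direction, with Defa24, the most abundant Defa gene, first as the reference. Capitals mark bases that differ from Defa24 or are extra against it in a pairwise alignment. Defa25 and Defa27 lack 7 bases of Defa24, and Defa28 lacks 3 and has 2 extra. The sequences were read from GRCm39 by the GENCODE coordinates chr8:22225284-22225393 (Defa24), chr8:21778190-21778299 (Defa3), chr8:21788188-21788297 (Defa5), chr8:22156546-22156655 (Defa34), chr8:21692353-21692462 (Defa41), chr8:22073775-22073883 (Defa28), chr8:21575199-21575301 (Defa25) and chr8:21806301-21806403 (Defa27), all on the forward strand.
Defa24: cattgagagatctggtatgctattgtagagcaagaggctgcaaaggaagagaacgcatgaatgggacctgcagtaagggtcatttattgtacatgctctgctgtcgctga
Defa3: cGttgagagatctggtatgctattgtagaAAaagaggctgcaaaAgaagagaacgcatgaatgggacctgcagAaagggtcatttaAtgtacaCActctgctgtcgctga
Defa5: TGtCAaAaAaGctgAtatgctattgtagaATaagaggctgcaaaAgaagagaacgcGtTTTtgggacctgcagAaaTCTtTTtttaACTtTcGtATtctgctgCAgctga
Defa34: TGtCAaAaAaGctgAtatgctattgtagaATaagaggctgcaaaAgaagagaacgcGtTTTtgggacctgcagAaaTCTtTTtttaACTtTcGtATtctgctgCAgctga
Defa41: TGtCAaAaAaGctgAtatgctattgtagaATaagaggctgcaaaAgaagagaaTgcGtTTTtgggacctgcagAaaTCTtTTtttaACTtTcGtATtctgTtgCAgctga
Defa28: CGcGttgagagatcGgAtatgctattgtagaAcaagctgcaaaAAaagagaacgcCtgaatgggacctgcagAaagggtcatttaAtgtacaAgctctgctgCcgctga
Defa25: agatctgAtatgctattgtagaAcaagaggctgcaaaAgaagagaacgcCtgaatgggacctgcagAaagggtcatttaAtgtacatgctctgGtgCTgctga
Defa27: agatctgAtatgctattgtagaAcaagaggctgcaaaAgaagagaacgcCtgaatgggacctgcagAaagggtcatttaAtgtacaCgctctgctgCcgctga

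Defa5 and Defa34 were identical over these 110 bases, and Defa35 had the same sequence. They carried 30 of 110 bases in capitals, and Defa41, with 32, was 98.2% identical to Defa34. Identity to Defa24 was 72.7% for Defa5 and Defa34, against 92.7% for Defa3, 85.7% for Defa28, 86.4% for Defa27 and 85.5% for Defa25. Missing and extra bases count as differences in these values. For Defa25 and Defa27 the differences are thus 7 missing bases beside 9 and 8 in capitals. Defa3 was identical here to Defa17, and over its whole coding sequence as well. Defa25 and Defa27 were 97.1% identical to each other in this part. The annotated reading frame of Defa27 holds 66 codons, against 92 to 94 in the other 5 genes. Defa34 and Defa5 differed in exon 1, with 98.6% identity over the whole coding sequence.

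How much of each transcript could be told from other genes was measured as the share of its stretches of 60 bases that occur in no transcript of another gene in the table. This share was 0% for Defa5, 7.99% for Defa3, 19.6% for Defa34, 30.9% for Defa25, 39.5% for Defa28 and 51.6% for Defa27. In stretches of 100 bases it was 11.6% for Defa5 and 8.98% for Defa3. All 62 unique stretches of Defa34 lay within exon 1, and 28 of 29 of Defa3 lay within exon 2. Over the family, 9 genes had no unique stretch of 60 bases. Of these, Defa5 held a mean of 9157 counts and the other 8 between 0 and 38.1. The counts of Defa5 therefore came from sequence that at 60 bases it shares with other genes (78.2% of its stretches with Defa34), or from longer reads or read pairs. How the authors' counting treated reads that match several genes is unknown from the sources used here. Part of the counts of Defa3, Defa5 and Defa34 may belong to their near-identical copies. For Defa25, Defa27 and Defa28 the largest overlap in stretches of 60 bases was with the pseudogene Defa-ps18 (55.5, 38.8 and 58.4%). Part of their counts may belong to it.

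**Figure D1:**
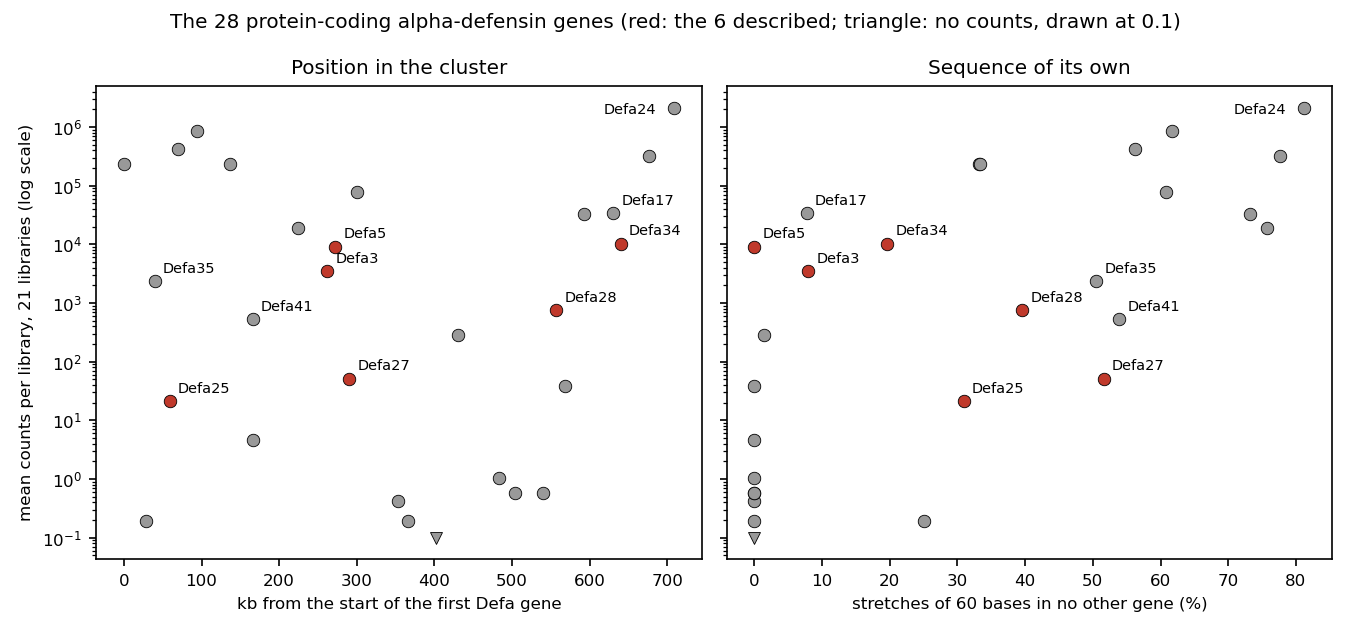
The 28 protein-coding Defa genes, with mean counts per library over 21 libraries on a log axis, against distance along the cluster in kb (left) and against the percentage of 60-base stretches found in no other gene of the table (right). Red points are the 6 genes described, grey points the other 22, and the triangle is a gene with no counts. Defa5 sits at 0% with 9157 counts, while Defa27 has 51.6% unique stretches and 51.2 counts.

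The 6 genes together held 0.381 to 0.741% of the summed Defa counts, with a median of 0.534%. Defa34 was the highest, with a mean of 10175 counts per library (7240 to 19798), and ranked 11 of 28. Defa5 followed at 9157 (6600 to 15015) and Defa3 at 3472 (2749 to 4329). Defa28 had 761 (482 to 984), Defa27 51.2 (22 to 87) and Defa25 21.3 (12 to 38). Per kb of transcript the order was the same, from 27133 counts for Defa34 and 24352 for Defa5 over 8228 for Defa3, 1888 for Defa28 and 138 for Defa27 to 76.3 for Defa25. The ranges of Defa34 and Defa5 overlapped, and so did those of Defa27 and Defa25, while Defa3 and Defa28 overlapped with no neighbour. Just above the 6 genes stood Defa40 with 18573 counts and just below them Defa31 with 4.62. Defa35 (2335), Defa41 (529), Defa42 (280) and Defa43 (38.1) lay in the same range and were not among the genes listed. The paper's Salmon quantification of a typical experiment gives another order, with Defa3 next after Defa24. Defa2, Defa20, Defa23, Defa32, Defa33, Defa36 and Defa43 are also high there, against mean counts of 0.429, 1.05, 0.19, 0.571, 0.19, 0 and 38.1 here. Defa25, Defa27 and Defa28 are low in both. Defa3 is thus minor in the deposited counts, and the cause of this difference was not tested. The lowest count of Defa27, 22, has an exact 95% Poisson interval of 13.8 to 33.3, which covers counting error only, so that single libraries of Defa25 and Defa27 are imprecise.

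Levels were compared as CPM, counts scaled to 1000000 in all, on library sizes scaled by TMM, a factor that sets most genes level between libraries. Tests were edgeR's quasi-likelihood tests over 13070 genes, called at a Benjamini-Hochberg adjusted p under 0.05 over all genes tested. All 6 members passed the filter on low counts. Since Defa34 was set apart with earlier results of these data known, its p-values of level are given as a description and not as support. Since these are bulk samples, fewer cells that express a gene and less RNA per cell cannot be told apart.

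The largest differences of level lay between germ-free and SPF mice on Milli-Q water. Of the 6 genes, 5 were higher in germ-free mice, all but Defa34, where 24.2% of all genes tested were called. Defa28 stood at 42.5, 24.6 and 45.7 CPM in the SPF libraries and at 124, 124 and 99.9 CPM in the germ-free libraries. The groups did not overlap, and the log2 fold change was 1.62 ± 0.20 (SE; adjusted p 1.29e-05 by edgeR). Defa27 rose from 2.18 ± 0.39 to 9.09 ± 0.22 CPM (SD, n = 3 each), by 2.06 ± 0.37 log2 units (SE; adjusted p 0.000418 by edgeR). Defa3 rose by 1.39 ± 0.21 (adjusted p 0.000119), Defa5 by 1.16 ± 0.22 (0.00084) and Defa25 by 1.65 ± 0.43 (0.00742), in log2 units with SE and by edgeR's test. For Defa34 the libraries stood at 737, 519 and 957 CPM in SPF mice and at 1134, 1072 and 819 CPM in germ-free mice, so that the groups overlapped (0.45 ± 0.22, adjusted p 0.147 by edgeR). The median log2 fold change was 1.51 for the 6 genes, 1.47 for the 14 other Defa genes tested, of which 13 were called higher, and -0.03 over all genes.

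This rise depended on the scaling. When libraries were scaled by their totals instead, all genes had a median of -0.99 in log2 fold change, with 74 called higher and 9264 lower, against 1654 and 1515 with TMM factors. Defa3 (0.44), Defa27 (1.10) and Defa28 (0.68) were still called higher, Defa5 (0.21, adjusted p 0.32) and Defa25 (0.71, adjusted p 0.13) were not, and Defa34 was called lower (-0.50, adjusted p 0.023 by edgeR). In counts as deposited, Defa3 stood at 3321 ± 594 in SPF and 3753 ± 237 in germ-free mice on Milli-Q water. Defa34 stood at 13594 ± 5383 and 7879 ± 783 (SD, n = 3 each). These counts are not scaled for depth. Total counts were 13246229, 14257027 and 16051708 in the SPF libraries and 11898265, 10754681 and 14133377 in the germ-free libraries. The 5 calls held in each of 21 fits that left out 1 library, while the number called over all genes ran from 1661 (without germ-free Milli-Q replicate 2) to 3610. Stem and cycling cell markers (Lgr5, Olfm4, Ascl2, Mki67 and Top2a) held 0.135 to 0.196% of counts in these germ-free libraries. In the SPF libraries they held 0.395 to 0.568%. Tuft cell markers (0.0058 to 0.0068% against 0.0162 to 0.0242%) and enteroendocrine markers (0.0017 to 0.0024% against 0.0107 to 0.0246%) were also lower there without overlap. So were immune and stromal markers, at most 0.00132% of counts. The part of these cells in the difference was not tested.

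On zinc water 1 of the 6 genes, Defa28, was called between germ-free and SPF mice, where 5.85% of all genes tested were called. Among the 14 other Defa genes tested 10 were called higher there with TMM factors. The median log2 fold change was 0.88 for those 14 and 0.65 for the 6 genes. Defa28 stood at 59.7, 44.6 and 50.9 CPM in SPF mice and at 113, 84.9, 76.2 and 71.2 CPM in germ-free mice, without overlap (0.74 ± 0.19, adjusted p 0.0238 by edgeR). The other 5 genes had log2 fold changes of 0.41 (Defa34) to 0.84 (Defa25), and Defa3 came nearest the threshold (0.65 ± 0.20, adjusted p 0.0535 by edgeR). It was called without SPF zinc replicate 1 (0.83, adjusted p 0.0402) or germ-free zinc replicate 4 (0.77, adjusted p 0.0125), and also without a filter on low counts, in DESeq2 and with the replicate block (adjusted p 0.00486, 0.0244 and 0.0177). With library totals, where all genes had a median of -0.61 and 32 were called higher and 6278 lower against 453 and 311, the value of Defa28 was 0.09 (adjusted p 0.641). With TMM factors the call was lost without SPF zinc replicate 2 or 3 (adjusted p 0.168 and 0.106) or germ-free zinc replicate 1 (0.0789). Without SPF zinc replicate 2 the number called over all genes fell from 764 to 51. Stem and cycling cell markers held 0.352 to 0.377% of counts in SPF and 0.180 to 0.327% in germ-free libraries on zinc water, and tuft cell markers 0.0155 to 0.0238% and 0.00543 to 0.00828%, and their part in the difference was not tested.

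**Figure D2:**
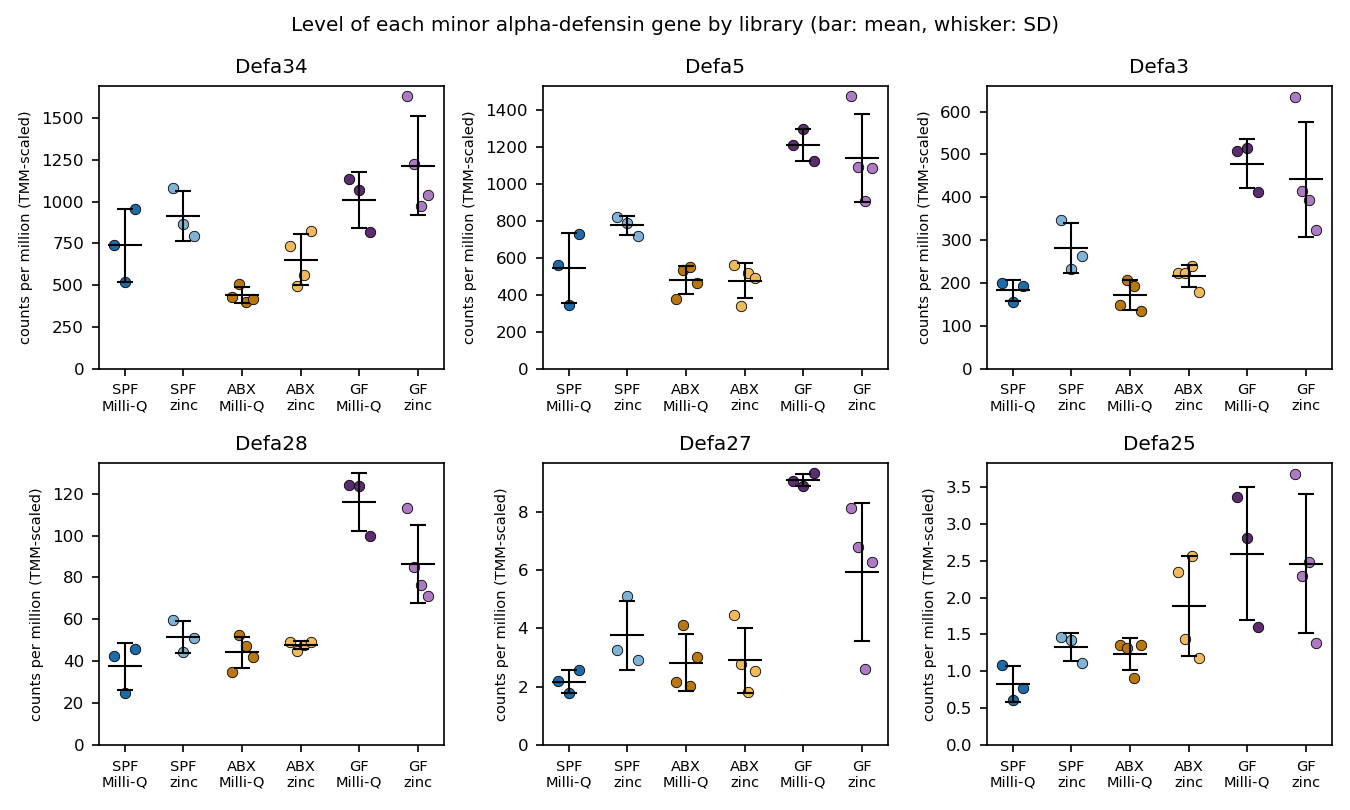
CPM (counts scaled to 1000000, TMM-scaled) of each gene in each of 21 libraries, by group, with the mean as a bar and the SD as whiskers. The highest group mean of each gene is that of a germ-free group, while the germ-free libraries of Defa34 on Milli-Q water (819 to 1134 CPM) overlap those of SPF mice (519 to 957 CPM).

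Setting each gene against the summed Defa counts of the same library removes the scaling and shows whether it moved with that sum. Defa24 held 48.6% of the summed counts and Defa30 19.7%, so the sum mostly follows these and not each gene of the family. The share was given as Defa-CPM, in which the summed Defa counts of a library are set to 1000000. Differences were tested on its log2 scale (0.5 counts added) by two-sided exact permutation tests over libraries within each water or context, with Benjamini-Hochberg adjustment over the 18 tests of the 6 genes and 3 effects. The 3 tests of Defa34 entered this adjustment, but their p-values are not given as support, since the gene was set apart on these data. Adjustment over the 15 tests of the other 5 genes, chosen after seeing the data, is therefore given as well.

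The share of Defa5 was lower in germ-free than in SPF mice. On Milli-Q water it was 1981, 1966 and 2792 Defa-CPM in SPF libraries and 1783, 1831 and 1736 in germ-free libraries. On zinc water it was 2245, 2713 and 2268 in SPF libraries and 1848, 1854, 1796 and 2160 in germ-free libraries. Every germ-free library lay below every SPF library on the same water, and the log2 difference was -0.32 ± 0.10 (SE; exact permutation p 0.00286, adjusted p 0.0171, smallest p possible 0.00143). With adjustment over the 60 tests of all 20 Defa genes with a mean of at least 10 counts, the adjusted p from these permutations was 0.0245, and over the 15 tests without Defa34 it was 0.0214. The difference was -0.31 ± 0.17 on Milli-Q and -0.33 ± 0.11 on zinc water (SE). Against all counts of the library in place of the Defa counts it was 0.08, and the Defa genes took 43.8 ± 0.844% of counts in germ-free mice on Milli-Q water and 29.6 ± 4.90% in SPF mice (SD, n = 3 each).

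For the share of Defa28 the germ-free difference was -0.0015 ± 0.063 (SE) and the exact permutation test gave p 0.991. It was 0.14 ± 0.12 on Milli-Q water, where the libraries overlapped, and -0.14 ± 0.033 on zinc water, where every germ-free library lay below every SPF library. The shares of Defa25 (0.01 ± 0.19) and Defa27 (0.13 ± 0.23) likewise gave exact permutation p-values of 0.954 and 0.626, with SEs that exceed the differences. For Defa27 the difference was 0.54 ± 0.14 on Milli-Q water, where every germ-free library lay above every SPF library, and -0.28 ± 0.43 on zinc water, where the libraries overlapped. Defa3 had a log2 difference of -0.19 ± 0.079 (exact permutation p 0.0357, adjusted p 0.0918 over 18, 0.107 over 15 and 0.119 over 60 tests). By water it was -0.14 ± 0.12 on Milli-Q, with overlap, and -0.24 ± 0.10 on zinc, where every germ-free library lay below every SPF library. Of the 5 genes other than Defa34, 1 was thus called in this effect. Among the 14 other Defa genes of at least 10 counts, 1 was called higher and 2 lower, with a median difference of -0.03.

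After antibiotics few of the 6 genes were called by level. On Milli-Q water 0.199% of all 13070 genes tested were called against SPF mice, and 1062 had an unadjusted p under 0.05 by edgeR. Of the 6 genes 0 were called there (1 at an unadjusted p under 0.05 by edgeR, 0 in DESeq2). The gene at that unadjusted p was Defa34, at 737, 519 and 957 CPM in SPF libraries and 426, 508, 399 and 419 CPM after antibiotics, with a log2 fold change of -0.75 ± 0.21 (adjusted p 0.18 by edgeR). On zinc water 1 of 6 genes, Defa5, was lower after antibiotics, where 8.97% of all genes tested were called. It stood at 821, 786 and 720 CPM in SPF libraries and 560, 340, 516 and 491 CPM in antibiotics libraries, without overlap (-0.70 ± 0.20, adjusted p 0.0351 by edgeR). This call was lost in 6 fits that each left out a library of either group except antibiotics zinc replicate 1, and the highest adjusted p was 0.125. It was 0.0955 without SPF zinc replicate 1. On this water 3 of the 14 other Defa genes tested were also called lower after antibiotics. The median log2 fold change was -0.44 for those 14 and -0.38 for the 6 genes. The Defa genes together took 27.6 ± 2.09% of counts after antibiotics (SD, n = 4) and 35.1 ± 1.30% in SPF mice (SD, n = 3), without overlap. Enterocyte markers held 0.0663 to 0.123% of counts in these SPF libraries and 0.0178 to 0.0378% in the antibiotics libraries. Goblet cell markers held 0.934 to 0.992% and 1.12 to 1.55%, and neither list overlapped between the groups. Their part in the difference of Defa5 was not tested.

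Against the summed Defa counts, the shares of Defa25 and Defa28 were higher after antibiotics. Defa28 stood at 151, 140 and 176 Defa-CPM in SPF libraries on Milli-Q water and at 208, 202, 183 and 204 after antibiotics. On zinc water it stood at 163, 154 and 160 in SPF libraries and at 186, 227, 186 and 228 after antibiotics. The groups did not overlap on either water, and the log2 difference was 0.37 ± 0.069 (SE; exact permutation p 0.000816, the smallest possible, adjusted p 0.0129).

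Defa25 stood at 3.87, 3.49 and 2.98 Defa-CPM in SPF libraries on Milli-Q water and at 8.02, 5.04, 3.53 and 6.63 after antibiotics, with some overlap. On zinc water it stood at 4.01, 4.91 and 3.52 in SPF libraries and at 8.88, 7.26, 9.98 and 5.47 after antibiotics, without overlap. The log2 difference was 0.78 ± 0.18 (SE; exact permutation p 0.0049, adjusted p 0.022), on counts of 12 to 38 per library. Without SPF Milli-Q replicate 3 it was 0.73 (exact permutation, adjusted p 0.0549). Adjusted over all 60 tests of the family, the permutation p-values were 0.0327 for Defa25 and 0.0245 for Defa28, and over the 15 tests without Defa34 they were 0.0245 and 0.0122. Against all counts of the library, Defa28 was not called (0.19, exact permutation, adjusted p 0.187).

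For Defa3 (0.05 ± 0.089), Defa5 (-0.14 ± 0.11) and Defa27 (0.25 ± 0.24) the log2 difference in share after antibiotics was not past the threshold in the exact permutation tests. Of the 5 genes other than Defa34, 2 were therefore called, both higher. These 2, Defa25 and Defa28, share 55.5 and 58.4% of their 60-base stretches with the same pseudogene, Defa-ps18, so their counts may not be separate. Of the 14 other Defa genes 1 was called higher and 2 lower, with a median difference of -0.0018. Goblet cell markers held 1.31 to 1.51% of counts after antibiotics on Milli-Q water and 1.04 to 1.56% in SPF mice. On zinc water they held 1.12 to 1.55% after antibiotics and 0.934 to 0.992% in SPF mice, without overlap, and their part in these shares was not tested.

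**Figure D3:**
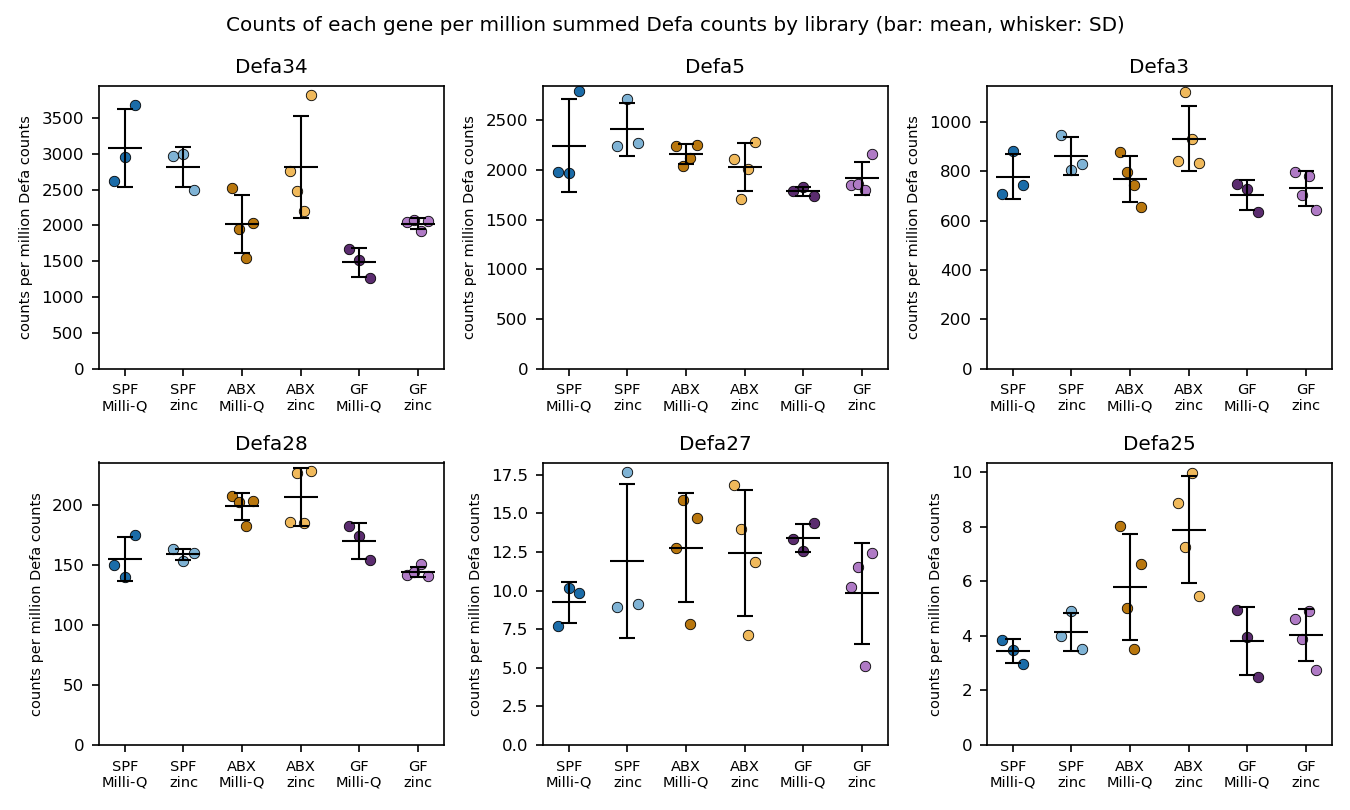
Share of each gene (Defa-CPM) in each of 21 libraries, by group, with the mean as a bar and the SD as whiskers. Group means of Defa28 and Defa25 are highest after antibiotics, Defa5 lies lower in germ-free libraries, and Defa34 has its lowest mean, 1482, in germ-free mice on Milli-Q water and its highest, 3084, in SPF mice on the same water.

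Zinc water changed the levels of few of these genes. In SPF mice 0 of 6 genes were called (4 at an unadjusted p under 0.05 by edgeR, 0 in DESeq2), where 0.138% of all genes tested were called. Of all 13070 genes 665 had an unadjusted p under 0.05 there. All 6 members had log2 fold changes above 0, from 0.31 (Defa34) to 0.79 (Defa27). Their median was 0.57, against 0.43 for the 14 other Defa genes and -0.02 for all genes. The Defa genes as a whole took 35.1 ± 1.30% of counts on zinc and 29.6 ± 4.90% on Milli-Q water in SPF mice (SD, n = 3 each). Enterocyte markers held 0.0663 to 0.123% of counts on zinc and 0.0138 to 0.0482% on Milli-Q water in these libraries. Goblet cell markers were lower on zinc water without overlap (0.934 to 0.992% against 1.04 to 1.56%). So were stem and cycling cell markers (0.352 to 0.377% against 0.395 to 0.568%) and enteroendocrine markers (0.0038 to 0.0094% against 0.0107 to 0.0246%). Stromal markers, at most 0.000166% of counts, were also lower. The part of these cells was not tested.

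After antibiotics 1 of 6 genes, Defa34, was higher on zinc water (0.58 ± 0.19 log2 units, SE; adjusted p 0.038 by edgeR), where 21.7% of all genes tested were called. The other 5 ranged from -0.01 (Defa5) to 0.60 (Defa25, ± 0.34). Outside the 6 genes, 1 of the 14 other Defa genes tested was also called higher there, Defa41 (0.64 ± 0.22, adjusted p 0.0426 by edgeR). In germ-free mice 11.4% of all 13070 genes tested were called, and 3764 had an unadjusted p under 0.05 by edgeR. Of the 6 genes 0 were called there (1 at an unadjusted p under 0.05 by edgeR, 0 in DESeq2). The values there ran from -0.63 ± 0.33 (Defa27) to 0.27 ± 0.21 (Defa34). Averaged over the contexts, 1 of 6 genes, again Defa34, was called (0.39 ± 0.12, adjusted p 0.0267 by edgeR), where 21.9% of all genes tested were called. Defa3 was called there without germ-free zinc replicate 4 (0.32, adjusted p 0.0235 by edgeR). In the averaged effect 1 of the 14 other Defa genes was called higher as well, Defa35 (0.41 ± 0.12, adjusted p 0.0213 by edgeR).

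Neither call of Defa34 was firm, and the gene was set apart on these data. With library totals they were lost (0.40, adjusted p 0.115, and 0.29, adjusted p 0.0724). The call after antibiotics was lost in 6 of 21 fits that left out a library (any antibiotics Milli-Q replicate, or antibiotics zinc replicate 1 or 4), with a log2 fold change of 0.44 and an adjusted p of 0.144 without antibiotics zinc replicate 4. The averaged call was lost without SPF Milli-Q replicate 2, SPF zinc replicate 1 or germ-free Milli-Q replicate 3, with adjusted p-values of 0.0515, 0.0652 and 0.0618 by edgeR, and was just under the threshold (0.05 after rounding) without antibiotics zinc replicate 4.

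The zinc effect did not differ between contexts past the threshold for any of the 6 genes. For antibiotics minus SPF, 0 of 6 were called in edgeR's interaction test (0 at an unadjusted p under 0.05, 0 in DESeq2; 0% of all genes tested called). For germ-free minus SPF, 0 of 6 were called (3 at an unadjusted p under 0.05, 0 in DESeq2; 0% of all genes tested called). Defa28 had the lowest unadjusted p there (-0.89 ± 0.27, adjusted p 0.225). For germ-free minus antibiotics, 0 of 6 were called (1 at an unadjusted p under 0.05, 0 in DESeq2, with 0.207% of all genes tested called). Over all 13070 genes, 2418, 1741 and 2140 had an unadjusted p under 0.05 by edgeR in these interaction tests, in the same order. Exact permutation tests of shares for zinc called 2 of the 14 other Defa genes higher (Defa30 and Defa35) and 1 lower (Defa38). Adjustment there was over the 60 tests of the family, and the median difference of those 14 was 0.02. As a share of the Defa counts, 0 of the 5 genes other than Defa34 were called for zinc (1 at an unadjusted p under 0.05), with log2 differences from -0.09 ± 0.19 (Defa27) to 0.28 ± 0.17 (Defa25). That 1 was Defa3 (0.16 ± 0.068, exact permutation p 0.0304, adjusted p 0.0913 over 18 and 0.107 over 15 as over 60 tests), with an adjusted p over 18 of 0.0427 without germ-free zinc replicate 4 and 0.0411 without SPF Milli-Q replicate 2.

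**Figure D4:**
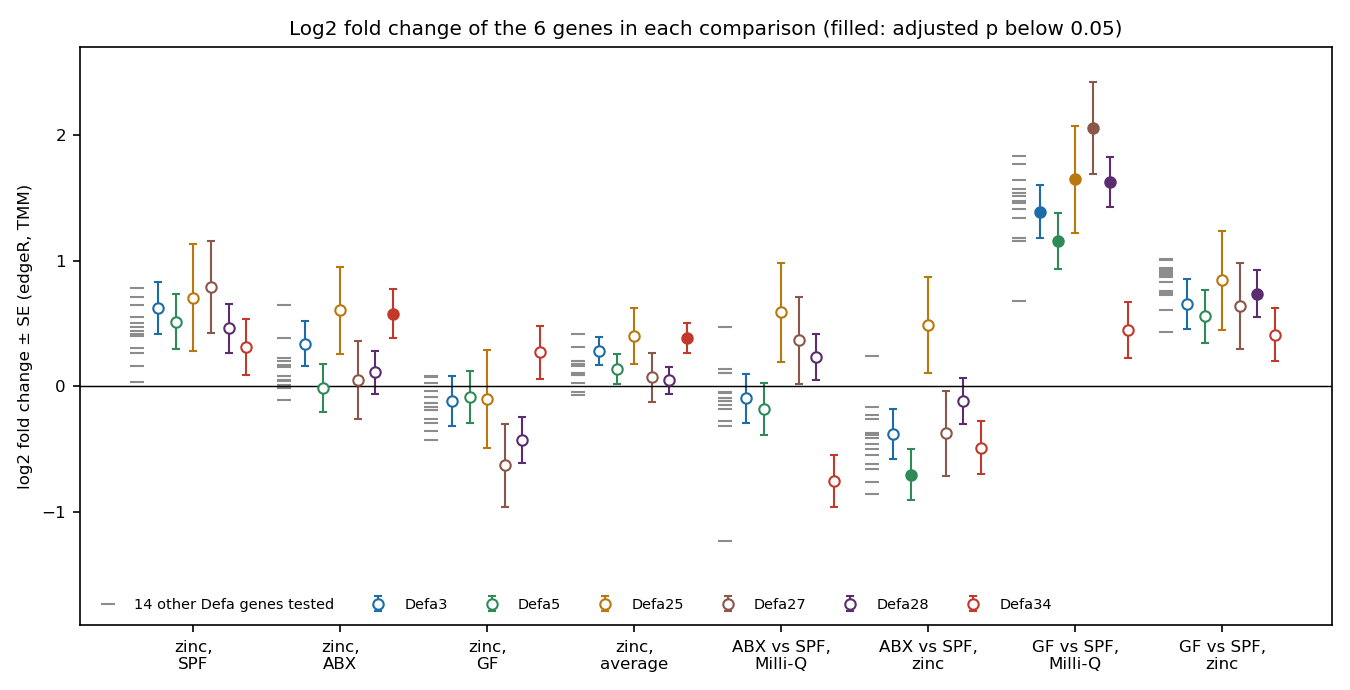
Log2 fold change with SE of the 6 genes in 8 comparisons (edgeR, TMM factors), with the 14 other Defa genes tested as grey dashes. Filled points passed an adjusted p of 0.05. The 5 filled points in germ-free against SPF mice on Milli-Q water run from 1.16 to 2.06, and Defa34 lies below them at 0.45.

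The share of Defa34 ranged 3.03-fold over the 21 libraries, from 1262 to 3819 Defa-CPM, against 1.76-fold for Defa3, 1.63-fold for Defa5 and 1.63-fold for Defa28. The rarer Defa25 (4.03-fold) and Defa27 (3.44-fold) ranged further, on counts that are low. Among the 20 Defa genes with a mean of at least 10 counts the range of Defa34 came in 4th place, after those of Defa25, Defa41 (3.81-fold) and Defa27. Defa40 and Defa35, the nearest in abundance outside the 6 genes, ranged 1.5- and 2.22-fold. The group means of Defa34 differed up to 2.08-fold, and those of Defa3, Defa5 and Defa28 up to 1.32-, 1.35- and 1.43-fold.

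On Milli-Q water the share of Defa34 was 2615, 2955 and 3681 Defa-CPM in SPF libraries. It was 2525, 1949, 1544 and 2039 after antibiotics and 1672, 1513 and 1262 in germ-free libraries. Every antibiotics and every germ-free library lay below every SPF library, by -0.62 ± 0.20 and -1.05 ± 0.19 in mean log2 share (SE). These comparisons share the SPF libraries.

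On zinc water the share was 2963, 2995 and 2498 in SPF libraries, 2765, 2486, 2194 and 3819 after antibiotics, and 2044, 2075, 1921 and 2064 in germ-free libraries. The antibiotics libraries overlapped those of SPF mice there (-0.03 ± 0.19), while the germ-free libraries lay below them (-0.47 ± 0.089). The zinc difference of the log2 share was -0.12 ± 0.17 for SPF, 0.47 ± 0.22 for antibiotics and 0.46 ± 0.12 for germ-free mice. The libraries did not overlap in the last of these. In germ-free mice the shares of Defa27 (-0.52 ± 0.29) and Defa28 (-0.23 ± 0.077) did not overlap between waters either, both lower on zinc. Those of Defa3, Defa5 and Defa25 overlapped there. These values are a description, with no p-value given.

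Since Defa34 and Defa5 share their whole coding part of exon 2, their ratio was also taken. For SPF mice it was 1.38 ± 0.11 with Milli-Q and 1.18 ± 0.13 with zinc water (SD, n = 3 each). After antibiotics it was 0.928 ± 0.16 and 1.38 ± 0.24 (SD, n = 4 each), and in germ-free mice 0.830 ± 0.11 (SD, n = 3) and 1.06 ± 0.074 (SD, n = 4). Counts of Defa34 were thus below those of Defa5 on average in antibiotics and germ-free mice on Milli-Q water and above them in the other 4 groups.

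The 3 genes most like each of the 6 over the 21 libraries made 18 pairs, 8 of them with protein-coding Defa genes and 3 with Defa pseudogenes, by Pearson's r of log2 CPM among 9351 genes of at least 5 CPM. This is a description, over libraries that share their group differences and scaling. Defa34 was most like Defa41 (r = 0.951), followed by the pseudogene Defa-ps6 (0.883) and Hpgd (0.863), a prostaglandin-degrading enzyme. Defa3 was most like Defa17 (0.988), whose coding sequence is the same, then Defa30 (0.968) and Defa24 (0.958). Defa5 was most like Defa40 (0.966), Defa24 (0.963) and Defa26 (0.960). Defa28 was most like the pseudogene Defa-ps18 (0.989), with which 58.4% of its 60-base stretches are shared, then Pnliprp2 (0.953) and Defa24 (0.951). For Defa25 the closest were Defa-ps1 (0.851), Etf1 (0.839) and Mrfap1 (0.836), and for Defa27 Bcas3 (0.916), Pla2g12a (0.908) and Pycr1 (0.907). The correlation with the summed Defa level was 0.962 for Defa3, 0.964 for Defa5, 0.953 for Defa28, 0.835 for Defa27, 0.813 for Defa34 and 0.697 for Defa25. Around the group means it was 0.825, 0.855, 0.903, 0.372, 0.644 and 0.510 in the same order.

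Defa41, 98.2% identical to Defa34 in the coding part of exon 2, had a mean of 174 ± 51 Defa-CPM in SPF (SD, n = 3), 79.9 ± 4.6 after antibiotics (SD, n = 4) and 97.8 ± 34 in germ-free mice (SD, n = 3), all on Milli-Q water. On zinc water the means were 155, 119 and 115. Its level was called lower after antibiotics on both waters, with log2 fold changes of -1.23 ± 0.24 and -0.86 ± 0.24 (SE; adjusted p 0.0218 and 0.0279 by edgeR). On Milli-Q water it was also the 1 of the 14 other Defa genes not called higher in germ-free mice (0.68 ± 0.25, adjusted p 0.0529 by edgeR). In the annotation the Defa41 interval runs over Defa31 on the same strand, so its counts are uncertain. Of the 60-base stretches of Defa41, 53.9% occurred in no other gene of the table.

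Other genes of α-defensin production were taken from a list of 12 covering transcription, processing and packing. Mmp7, the protease that activates the precursors in the mouse, exceeded its SPF level in germ-free mice on Milli-Q water (0.74 ± 0.23, adjusted p 0.022 by edgeR). Its means were 2870 ± 661 CPM in SPF and 4797 ± 236 CPM in germ-free mice (SD, n = 3 each). On zinc water its log2 fold change was 0.37 ± 0.21 (adjusted p 0.303), and for zinc it was between -0.06 and 0.31 in the 3 contexts, with no call. In germ-free mice on Milli-Q water 3 of the 12 were higher and 2 lower, where 24.2% of all genes tested were called. With library totals 0 were higher and 8 lower, so that these directions depend on the scaling. Slc30a2, a zinc transporter of Paneth cell granules, rose by 1.18 ± 0.17 and Gfi1, a transcription factor of secretory lineages, by 0.63 ± 0.22. Fzd5, a Wnt receptor, fell by 0.84 ± 0.17, and Nod2, an intracellular sensor of bacterial cell wall, had a log2 fold change of -2.05 ± 0.68, at 0.554 ± 0.54 CPM in germ-free mice (SD, n = 3). Their adjusted p-values by edgeR were 6.68e-05, 0.0371, 0.00146 and 0.0305.

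For zinc after antibiotics 1 of the 12 was higher, Slc30a2 (0.41 ± 0.15), and 3 were lower, Tcf7l2 (-0.48 ± 0.16), Sox9 (-0.40 ± 0.13) and the autophagy gene Atg16l1 (-0.55 ± 0.16), with adjusted p-values of 0.0483, 0.0346, 0.0334 and 0.0166 by edgeR. These were 4 of 12 against 21.7% of all genes tested, and with library totals 1 was called, Atg16l1. Tcf7l2 and Sox9 are transcription factors of the Wnt pathway in crypts. In germ-free mice Fzd5 was higher on zinc water (0.69 ± 0.17, adjusted p 0.0164), where 11.4% of all genes tested were called, and also with library totals. Averaged over contexts, Slc30a2 was higher (0.31 ± 0.091, adjusted p 0.0201) and Spdef (-0.40 ± 0.14, adjusted p 0.0499) and Atg16l1 (-0.36 ± 0.099, adjusted p 0.0139) were lower, all by edgeR, where 21.9% of all genes tested were called. With library totals only Atg16l1 of the 12 was called.

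Of 10 other secreted Paneth cell products, 6 were higher and 3 lower in germ-free mice against SPF mice on Milli-Q water (24.2% of all genes tested called), and 3 higher and 3 lower on zinc water (5.85%). With library totals these counts were 4 higher and 3 lower on Milli-Q water and 0 higher and 3 lower on zinc water. After antibiotics 3 were lower on each water (0.199 and 8.97% of all genes tested called), with both scalings. Zinc water went with 2 higher after antibiotics (21.7%) and 2 lower in germ-free mice (11.4%), against 0 and 1 with library totals, all by edgeR.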

How the data were processed

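Paneth cells were sorted by FACS and stranded mRNA libraries were made. The authors deposited raw, unnormalized counts for Ensembl genes in 1 table, whose 21 columns were matched to the samples by name. Per the submitters' processing notes, FastQC 0.12.0, STAR 2.7.0a and DESeq2 were used with mm39. How reads were counted, with or without strand, and what became of reads with several matching genes, is not given in the sources that were used here. Such reads may be missing, divided or repeated in the counts, which bears on every Defa gene.

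The 6 genes and all gene lists were chosen with earlier results of these data known. All 6 genes were reported whatever their values, and others by family, by likeness (the 3 highest Pearson's r) or from the lists, by their calls. Counts were tested with edgeR 4.0.16 (R 4.3.3, limma 3.58.1) by quasi-likelihood tests in 1 fit of 21 libraries, with 6 group coefficients, TMM factors, filterByExpr (13070 genes) and 11 comparisons at an adjusted p of 0.05. CPM used TMM-scaled library sizes, with a prior count of 2 on the log2 scale. Shares of the summed Defa counts were compared by exact permutation within strata. Symbols, coordinates and sequences came from GENCODE M39 on GRCm39, the build of the files, and alignments were made with Biopython. Of the 6 genes 1 was in the RefSeq promoter table, and no promoter is shown. Both tests were checked on simulated data.

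Alternatives were median ratio size factors, library totals, TMM without the Defa genes, DESeq2 1.42.0, no or a stricter filter (10 counts in 10 libraries), fits of the compared groups alone, a replicate block and leaving out each library. For shares they were other denominators and the percent scale, and adjustments over the whole family or without the tests of Defa34, and library totals for the gene lists, were added after seeing the data. Replicate numbers were not used as pairs.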

Additional observations from a re-analysis of the deposited data

Results flagged for a closer look

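In each group of 4 libraries the highest and the lowest value of every gene was set against its nearest neighbour, as levels and as shares, and 2 of 36 sets held a value far from the others. Chance marks about 5% of such sets. Defa25 stood at 0.912 CPM in antibiotics Milli-Q replicate 3, against 1.31 CPM or more in the other 3 libraries of the group (gap over range 0.888, past the 95% critical value of Dixon), on 19 counts. Defa5 stood at 2160 counts per 1000000 summed Defa counts in germ-free zinc replicate 4, against 1854 or less in the other 3 libraries (gap over range 0.840). That library also had the lowest mean correlation with its group, 0.939, and without it the germ-free difference in the share of Defa5 was larger in size (-0.35). Of 18 tests of a difference of the zinc effect between contexts for the 6 genes, 0 passed the threshold in edgeR (4 had an unadjusted p under 0.05, 0 passed in DESeq2).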

How the results depend on the processing

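The counts of the 6 genes called depended on the processing in 7 of 11 comparisons. With library totals only, 0 were called for zinc after antibiotics, for zinc averaged and for germ-free mice on zinc water, in place of 1 each, and 4 in place of 5 for germ-free mice on Milli-Q water (Defa3, Defa27 and Defa28 higher, Defa34 lower). Without a filter on low counts, 2 were called for zinc averaged, 1 for antibiotics on Milli-Q water in place of 0, 3 for germ-free mice on zinc water and 1 in place of 0 for germ-free minus SPF. In germ-free mice on zinc water DESeq2 called 2 genes and a fit of only the groups compared 0. Leaving out a library gave 0 to 1 genes for zinc after antibiotics and for antibiotics on zinc water, 0 to 2 for zinc averaged and for germ-free mice on zinc water, and 5 in each of 21 such fits for germ-free mice on Milli-Q water. Among shares, antibiotics gave 1 gene in place of 2 against all counts of the library, and leaving out a library gave 1 to 2 genes for antibiotics, 1 to 2 for germ-free mice and 0 to 1 for zinc. With adjustment over the family, or without the tests of Defa34, these counts were the same as over the 18 tests. The cause of these changes was not tested.

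Of 1908 fold changes recomputed, 1872 stayed on their side of the threshold with their call unchanged in direction, 24 fell below it, 11 passed it and 1 reversed, that of Defa34 between germ-free and SPF mice on Milli-Q water (-0.50 with library totals only). A further 45 that were called in neither fit changed sign. Of 405 share differences 2 reversed, both for germ-free mice against all counts of the library, Defa5 (0.082) and Defa28 (0.40).

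Paired by the replicate numbers of their titles, the libraries showed little likeness. The correlation of deviations ran from -0.17 to 0.23 over 10 pairs, above 0.1 in 3. Of 20 libraries 8 were closest to their own number. Some germ-free Milli-Q columns carry other numbers than the titles, and pairing by the column numbers was not tested. With the replicate block 2 genes (Defa3 and Defa34) were called for zinc averaged and 2 (Defa3 and Defa28) for germ-free mice on zinc water, in place of 1 each, and the block changed no other count for the 6 genes.

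The counts over all genes also moved by over 1.5 times. Leaving out 1 library gave 5 to 37 in place of 18 (zinc, SPF), 1317 to 3477 for 2838 (zinc after antibiotics), 5 to 3435 for 1485 (zinc, germ-free, without germ-free Milli-Q replicate 2 and zinc replicate 4), 1946 to 4159 for 2860 (zinc averaged), 10 to 83 for 26 and 272 to 1588 for 1172 (antibiotics, Milli-Q and zinc water), 1661 to 3610 for 3169 and 51 to 1573 for 764 (germ-free, Milli-Q and zinc water), and 0 to 218, 0 to 767 and 0 to 362 for 0, 0 and 27 (differences of the zinc effect). With library totals they were 1445 in place of 2838 (zinc after antibiotics), 734 for 1485 (zinc, germ-free), 1286 for 2860 (zinc averaged), 606 for 1172 (antibiotics, zinc water), 9338 for 3169 and 6310 for 764 (germ-free, Milli-Q and zinc water) and 3 for 27 (germ-free minus antibiotics). DESeq2 gave 40 for 18 (zinc, SPF), 50 for 26 (antibiotics, Milli-Q), 1212 for 764, and 260, 34 and 323 for 0, 0 and 27 (differences of the zinc effect). Without a filter they were 269, 406, 675, 429 and 323 for 18, 26, 0, 0 and 27, and with the stricter filter 11 for 18. Fits of only the groups compared gave 3 for 1485, 2017 for 1172, 14 for 764, 249 for 0 and 2 for 27, and the replicate block 12 for 26, 1 for 0 and 15 for 27. No fit of only the groups compared applies to the averaged effect, which uses all 6. Defa25 and Defa27 are limited by depth, at 12 to 87 counts per library.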
